A study of Mus musculus with 6 samples.

Results

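The interferon-induced effector genes are a hand-made list of 42 mouse genes that cells switch on after contact with interferon, and 41 of them were found by symbol among the 14484 genes of the deposited count table. They were followed across 6 skin libraries in 2 classes, 29 measured genes taken as typical of type I interferon and 12 taken as typical of interferon gamma. Oasl1, of the type I-like class, was not analysed here. The classes overlap in biology, since many of these genes answer to either interferon.

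The comparison was between 3 libraries from ATR mD/mD mice (ATR fl/fl; Braf CA/+; Cre +), in which a part of the kinase domain of Atr is removed, and 3 libraries from ATR WT mice (ATR +/+; Braf CA/+; Cre +). Both groups therefore carried the Braf CA allele and Cre, on a C57BL/6-129J background, and there was no group without them. The tissue is given as skin, and the series design calls it nevi, that is, harmless clusters of pigment cells. The sources used here do not give the Cre driver, the age of the mice, or whether each library of a group came from its own animal. No p-value here reaches beyond the variation among these 6 libraries.

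Interferons are secreted proteins that warn cells of infection or damage. Type I interferon acts through the receptor chains Ifnar1 and Ifnar2 and a complex that holds STAT2 and IRF9 and binds the interferon-stimulated response element (ISRE). Interferon gamma, made mainly by T and NK cells, acts through Ifngr1 and Ifngr2, the gamma-activated site (GAS) in target genes, and the factor IRF1. The type I-like class holds proteins that sense or bind viral RNA, other antiviral proteins, and factors of interferon signalling such as STAT2 and IRF9. Apart from Irf1, the gamma-like class holds GTPases of families that attack the compartments in which bacteria and parasites live inside cells.

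The letters of the DNA just before the start sites of some members show these elements. The stretches below are from RefSeq's GRCm38.p6 windows, on the strand of the gene and 5′ to 3′. Capitals mark the ISRE core GAAANNGAAA (searched on both strands) and the GAS motif TTCNNNGAA (which reads alike on both), and matches that overlap run together in capitals. Irgm2, Igtp, Irgm1, Gbp3, Gbp2, Gbp7 and Irf1 are shown from the gamma-like class, and Isg15, Ifit1, Ifit3 and Bst2 from the type I-like class. All were picked from members with a match.
Irgm2 (chr11:58214890-58214934, plus strand): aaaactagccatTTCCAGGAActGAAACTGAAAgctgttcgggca
Igtp (chr11:58199499-58199543, plus strand): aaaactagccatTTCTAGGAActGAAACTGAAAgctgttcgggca
Irgm1 (chr11:48871423-48871462, minus strand): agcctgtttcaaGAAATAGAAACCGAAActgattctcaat
Gbp3 (chr3:142559987-142560026, plus strand): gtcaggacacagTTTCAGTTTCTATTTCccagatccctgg
Gbp2 (chr3:142620592-142620625, plus strand): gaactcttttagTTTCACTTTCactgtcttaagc
Gbp7 (chr3:142530218-142530304, plus strand): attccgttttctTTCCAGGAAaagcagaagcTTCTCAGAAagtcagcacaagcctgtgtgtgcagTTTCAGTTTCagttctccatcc
Irf1 (chr11:53769912-53769944, plus strand): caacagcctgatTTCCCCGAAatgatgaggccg
Isg15 (chr4:156200863-156200908, minus strand): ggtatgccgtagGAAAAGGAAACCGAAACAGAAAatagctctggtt
Ifit1 (chr19:34640773-34640825, plus strand): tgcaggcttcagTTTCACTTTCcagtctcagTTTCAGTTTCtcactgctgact
Ifit3 (chr19:34583361-34583428, plus strand): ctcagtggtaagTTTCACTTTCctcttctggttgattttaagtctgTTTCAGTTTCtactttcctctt
Bst2 (chr8:71537575-71537620, minus strand): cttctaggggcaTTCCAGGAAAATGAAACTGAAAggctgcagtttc

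Within the 250 bases before a start site, the ISRE core was found in 7 of the 8 gamma-like members with a RefSeq window and in 9 of the 20 type I-like members with one, against 3.46% of all 27025 genes with a window. The GAS motif was found in 5 of the same 8 and in 3 of the same 20, against 8.13% of all genes. Both together were found in 4 of the 8 and 2 of the 20, against 0.400%. The stretches of Irgm2 and Igtp, whose annotated spans overlap in GENCODE M21, were the same at 44 of their 45 positions. The GAS motif began at base 75 before the RefSeq start in Irgm2 and at base 45 in Igtp. In both genes it lay a few bases ahead of the ISRE core. These are matches of letters in the reference genome, and binding was not measured.

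Gene counts summed to between 34723600 and 38565590 in the ATR mD/mD libraries and to between 39297160 and 46847751 in the ATR WT libraries. The libraries differed widely in 34 hair shaft and follicle genes, whose mean was -0.51, 2.10 and 7.20 log2 CPM in ATR mD/mD 1, 2 and 3, against 1.62, 6.98 and 7.26 log2 CPM in ATR WT 1, 2 and 3 (CPM is the usual read count scaled to library size, here by TMM). Hair levels were therefore high in ATR mD/mD 3, ATR WT 2 and ATR WT 3 and low in ATR mD/mD 1, ATR mD/mD 2 and ATR WT 1, and the groups had unequal numbers of each. Xist had 18050, 40 and 23 counts in ATR mD/mD 1, 2 and 3, against 37, 23005 and 29207 counts in ATR WT 1, 2 and 3, and Y-linked genes were high where Xist was low. Each group therefore held RNA of both sexes and of more than 1 animal, and sex was not balanced between groups. Atr had 728, 874 and 865 counts in ATR mD/mD, against 640, 1065 and 1182 counts in ATR WT, and a count over the whole gene does not check the deletion. Keratinocyte markers had a summed level between 13130 and 17310 CPM in ATR mD/mD and between 10810 and 18330 CPM in ATR WT, and melanocyte markers had between 156 and 900.6 CPM, against 215.8 to 901.8 CPM.

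Most gamma-like genes had a negative fold change in ATR mD/mD skin, while the type I-like genes lay on both sides of 0. Of 12 gamma-like members, 11 had a log2 fold change below 0, with a median of -0.44 and a range from -0.83 for Irgm2 to 0.48 for Gbp9. Of 29 type I-like members, 14 were below 0, with a median of 0.04 and a range from -0.38 for Rtp4 to 0.62 for Oas1g. Over all genes, 48.0% were below 0 and the median was 0.01. No member passed the test over all genes: the adjusted p was 0.9999 for each of the 41 (edgeR quasi-likelihood), where 0.0483% of all genes were called. DESeq2, edgeR's exact test and limma-voom called 0 members as well. The lowest adjusted p in the authors' deposited table was 1 for the members. The difference between the classes was not tested.

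At an unadjusted p under 0.05, 4 of the 12 gamma-like members were lower (Gbp4, Irgm2, Iigp1 and Gbp3) and 0 were higher, against 1.09% and 0.566% of all genes (edgeR quasi-likelihood). None of the 29 type I-like members reached that level in either direction, the lowest being an unadjusted p of 0.139 for Oas1b. Every ATR mD/mD library lay below every ATR WT library in 5 of 12 gamma-like members (those 4 and Irgm1) and in 1 of 29 type I-like members (Zbp1), against 2.58% of all genes. No member showed the opposite separation, which held for 2.26% of all genes.

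**Figure D1:**
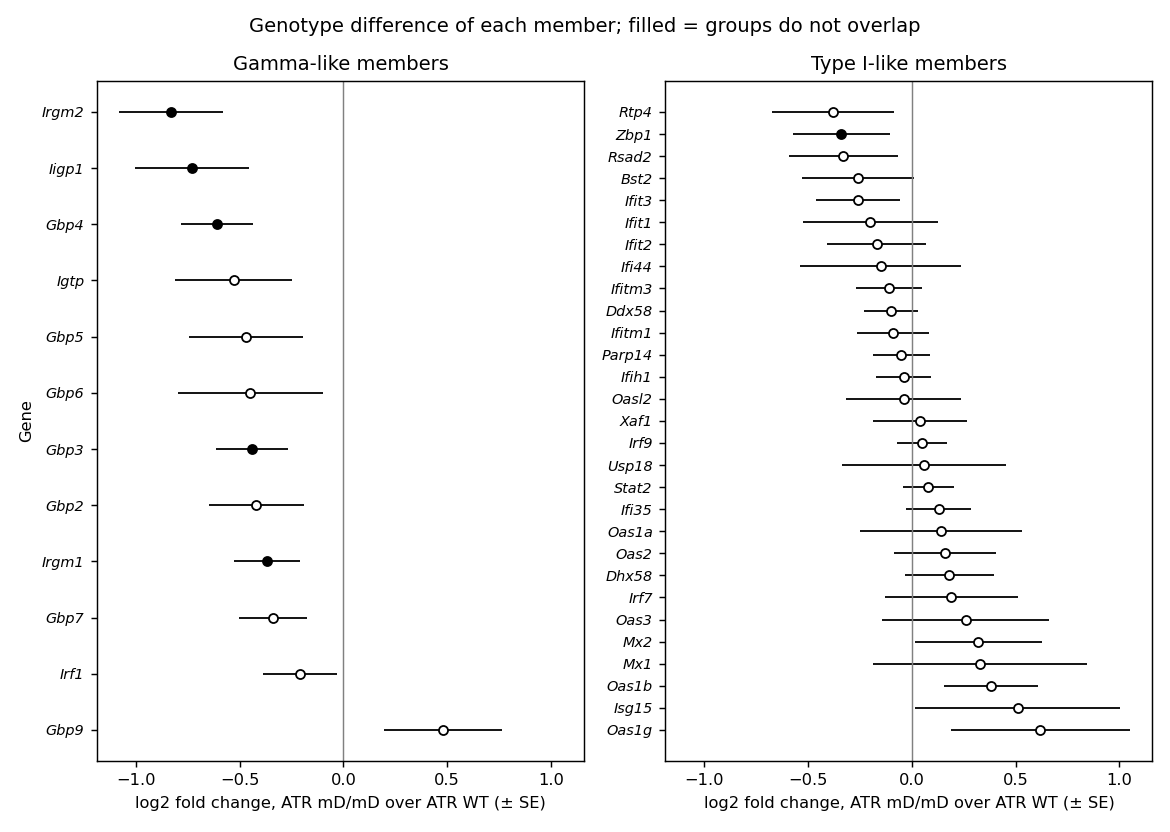
Log2 fold change of ATR mD/mD over ATR WT (x axis) for each measured member (y axis), with bars of 1 standard error from the edgeR test; filled points are genes whose groups do not overlap. Of the gamma-like members 11 of 12 lie left of 0, with Gbp9 at 0.48 on the other side, and the type I-like members spread from -0.38 to 0.62.

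Among the gamma-like genes, the immunity-related GTPases included the 2 lowest fold changes, those of Irgm2 and Iigp1. These are dynamin-like proteins that interferon gamma induces and that load onto parasite vacuoles. Irgm2, a regulator of the family, had 23.8, 12.5 and 17.9 CPM in ATR mD/mD 1, 2 and 3, against 29.8, 29.6 and 37.4 CPM in ATR WT 1, 2 and 3. All 3 ATR mD/mD values were below the ATR WT values, the log2 fold change was -0.83 (SE 0.251, unadjusted p = 0.0141, edgeR), and with 1 library left out it ran from -1.08 to -0.63. Iigp1, an effector that disrupts the vacuole of Toxoplasma, had 33.6, 16.7 and 27.9 CPM in ATR mD/mD and 46.9, 35.0 and 47.7 CPM in ATR WT. The groups were separate by a small gap, ATR mD/mD 1 lying just under ATR WT 2, and the log2 fold change was -0.73 (SE 0.277, unadjusted p = 0.0358, edgeR).

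Irgm1, a regulator that also acts in autophagy, had 29.6, 21.9 and 21.8 CPM in ATR mD/mD, against 30.7, 32.3 and 31.8 CPM in ATR WT. The ATR WT values were close together, and ATR mD/mD 1 was near them (log2 fold change -0.37, SE 0.160). Igtp, also a regulator of the family, had 36.3, 16.7 and 26.1 CPM in ATR mD/mD and 42.2, 36.0 and 36.0 CPM in ATR WT (log2 fold change -0.53, SE 0.280), and ATR mD/mD 1 lay within the ATR WT range. In GENCODE M21 the spans of Igtp (58199556 to 58207591) and Irgm2 (58199618 to 58222782) on chromosome 11 overlap. The RefSeq start used for the promoter stretch of Irgm2 lies at 58214977, inside its span. In GENCODE M21 the 2 genes share 162 exon bases on the same strand, 8.01% of the exon bases of Igtp. Reads in those bases cannot be assigned to either gene alone.

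The guanylate binding proteins, large GTPases that coat and break open pathogen compartments, lie in 2 clusters of the mm10 genome. On chromosome 3 (142493978 to 142638008), all 4 measured members had negative values of similar size, from -0.47 to -0.34. Gbp3 had 17.6, 12.3 and 15.2 CPM in ATR mD/mD and 21.9, 19.1 and 20.3 CPM in ATR WT (log2 fold change -0.44, SE 0.173). The groups did not overlap. Gbp2, which localises to the Toxoplasma vacuole, had 60.7, 36.0 and 37.2 CPM in ATR mD/mD and 53.9, 57.6 and 67.2 CPM in ATR WT (-0.42, SE 0.229), with ATR mD/mD 1 inside the ATR WT range. Gbp5, which promotes inflammasome assembly, had 11.6, 7.03 and 6.44 CPM against 12.8, 9.89 and 11.9 CPM (-0.47, SE 0.273), and Gbp7 had 22.0, 18.8 and 18.1 CPM against 21.9, 23.5 and 29.2 CPM (-0.34, SE 0.164). In both genes ATR mD/mD 2 and 3 were below all ATR WT libraries and ATR mD/mD 1 was not. Gbp2b, no member and named after its values were seen, lies in the same interval. It had 3.20, 2.87 and 2.12 CPM against 3.20, 4.60 and 6.49 CPM, with overlap (-0.80, SE 0.335), a value outside the range of the members.

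On chromosome 5 (105077630 to 105293698), the measured members had values on both sides of 0. Gbp4 had 19.7, 14.4 and 16.2 CPM in ATR mD/mD and 29.1, 22.8 and 24.8 CPM in ATR WT, with no overlap (log2 fold change -0.61, SE 0.174, unadjusted p = 0.0113, edgeR). Gbp6 had 22.5, 8.84 and 13.2 CPM against 24.4, 17.4 and 18.9 CPM, with overlap (-0.45, SE 0.349). Gbp9 was the exception of the class, with 14.6, 18.3 and 18.3 CPM in ATR mD/mD and 7.72, 12.8 and 16.1 CPM in ATR WT (0.48, SE 0.285). Its groups overlapped, and the lowest value was in ATR WT 1. The 3 other measured genes of the cluster, no members and named after their values were seen, also had values on both sides of 0. Gbp10 had 5.18, 6.07 and 5.87 CPM in ATR mD/mD and 1.35, 4.03 and 4.40 CPM in ATR WT, with no overlap (0.80, SE 0.441). Gbp11 had 4.60, 7.57 and 3.49 CPM against 1.52, 4.97 and 6.28 CPM (0.29, SE 0.552), and Gbp8, which shares 60 exon bases with Gbp9, had 3.37, 0.914 and 1.72 CPM against 2.73, 2.85 and 5.28 CPM (-0.86, SE 0.530). Gbp4, Gbp9 and other genes of this cluster have close relatives beside them, so counts depend on how shared reads were treated.

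**Figure D2:**
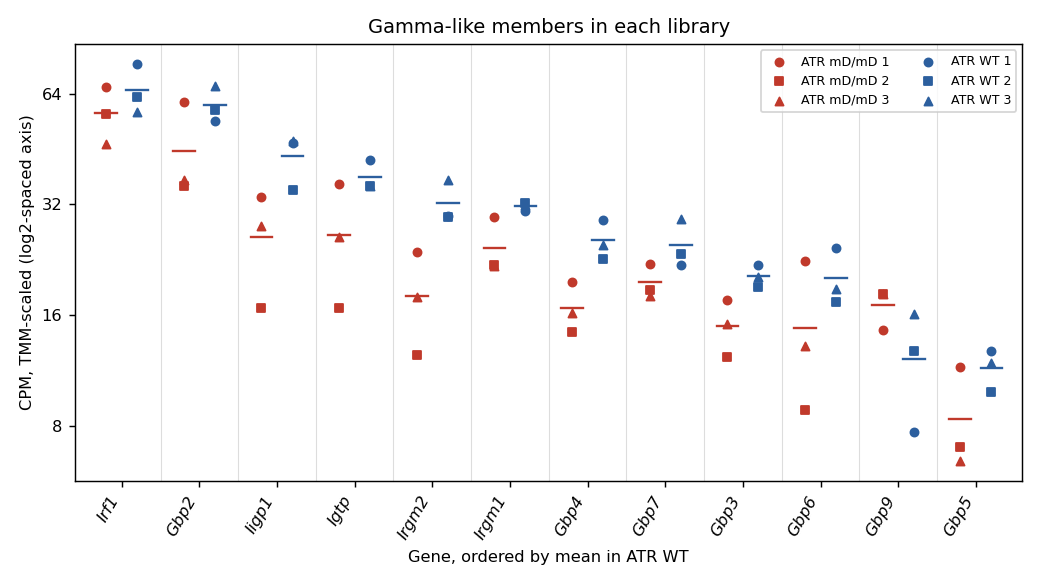
CPM of the 12 gamma-like members in each library (log2-spaced y axis), genes ordered by their ATR WT mean; points are libraries and bars are group means, with ATR mD/mD left of ATR WT for each gene. ATR mD/mD 2 is the lowest library in 7 of the 12 genes, and ATR mD/mD 1 is the highest of its group in 11.

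Irf1 is the transcription factor that carries much of the interferon gamma programme. It had 66.6, 56.4 and 46.7 CPM in ATR mD/mD and 77.1, 62.6 and 57.0 CPM in ATR WT. The groups overlapped, since ATR mD/mD 1 exceeded ATR WT 2 and 3 (log2 fold change -0.21, SE 0.180). Of the factors of the type I pathway, Stat2 and Irf9 had fold changes nearer to 0, and Irf7 had one of similar size and opposite sign. Stat2 had 38.8, 37.2 and 39.7 CPM in ATR mD/mD and 33.2, 39.9 and 36.1 CPM in ATR WT (0.08, SE 0.123). Irf9, its DNA-binding partner, had 53.5, 45.7 and 46.7 CPM against 50.6, 45.6 and 44.4 CPM (0.05, SE 0.121). Irf7, which amplifies type I interferon production, had 16.2, 11.0 and 25.9 CPM in ATR mD/mD and 17.7, 15.8 and 13.2 CPM in ATR WT. ATR mD/mD 3 was the highest library and ATR mD/mD 2 the lowest, and the value of 0.19 (SE 0.320) was -0.19 without ATR mD/mD 3.

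Within the type I-like class, the small values on both sides of 0 are given by biochemical family. Among the RNA sensors, the log2 fold change was -0.10 (SE 0.132) for Ddx58 (RIG-I), -0.04 (SE 0.134) for Ifih1 (MDA5) and 0.18 (SE 0.214) for Dhx58 (LGP2). Zbp1, a sensor of nucleic acid in the Z form that can start cell death, had 9.38, 5.76 and 9.39 CPM in ATR mD/mD and 10.5, 10.3 and 10.3 CPM in ATR WT (-0.34, SE 0.234). Its groups did not overlap, but ATR mD/mD 1 and 3 were close to the ATR WT values, and without ATR mD/mD 2 the value was at its highest, -0.14.

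The Ifit genes encode proteins that bind foreign RNA ends. Ifit3 had 17.0, 12.8 and 13.5 CPM in ATR mD/mD and 21.0, 16.5 and 14.4 CPM in ATR WT (log2 fold change -0.26, SE 0.203), with ATR mD/mD 1 inside the ATR WT range. Ifit1 and Ifit2 had -0.20 (SE 0.326) and -0.17 (SE 0.237), and all 3 genes overlapped between groups. Rsad2 (viperin), an enzyme that makes a chain-ending nucleotide, had -0.33 (SE 0.264), and Rtp4 had the lowest value of the class, with 11.0, 5.48 and 9.25 CPM against 12.8, 11.5 and 9.19 CPM (-0.38, SE 0.295).

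The oligoadenylate synthetase family, some of whose proteins make the messenger that activates RNase L, had values mostly above 0. Oas1b had 7.72, 5.54 and 6.96 CPM in ATR mD/mD and 5.32, 5.80 and 4.40 CPM in ATR WT (log2 fold change 0.38, SE 0.226), with ATR mD/mD 2 inside the ATR WT range. Oas1g had 1.54, 0.736 and 2.20 CPM against 0.827, 1.01 and 1.06 CPM (0.62, SE 0.433). Oas1a, Oas2 and Oas3 had 0.14 (SE 0.390), 0.16 (SE 0.246) and 0.26 (SE 0.402), and the related Oasl2 had -0.04 (SE 0.276), and each of these genes overlapped between groups. The values of Oas1a and Oas3 turned to -0.13 and -0.20 without ATR mD/mD 3. Oas1a, Oas1b and Oas1g are close paralogs, so their separate counts are uncertain. The GTPase genes Mx1 and Mx2 had 0.33 (SE 0.516) and 0.32 (SE 0.305), at levels from 0.689 to 3.58 CPM.

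Isg15, a ubiquitin-like protein, and Usp18, the enzyme that removes it from targets and damps the type I receptor, showed how far 1 library could carry a gene. Isg15 had 8.66, 5.84 and 21.8 CPM in ATR mD/mD and 10.5, 8.07 and 6.90 CPM in ATR WT. Only ATR mD/mD 3 was above the ATR WT range, and the log2 fold change of 0.51 (SE 0.493) was -0.23 without it. Usp18 had 13.9, 13.6 and 11.1 CPM in ATR mD/mD and 20.5, 9.34 and 7.22 CPM in ATR WT (0.06, SE 0.395), with ATR WT 1 the highest library, and the value was 0.65 without that library.

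The most abundant members per length were Ifitm3 and Bst2, both membrane-bound restriction factors. Ifitm3, which blocks virus fusion, averaged 225 CPM per kb of exon in ATR mD/mD and 242 CPM per kb in ATR WT. Bst2 (tetherin), which holds budding virus on the cell, averaged 41.3 and 49.3 CPM per kb, and Ifi35 averaged 26.8 and 24.4 CPM per kb. Ifitm1, a relative of Ifitm3, averaged 8.71 CPM per kb in ATR mD/mD and 9.25 CPM per kb in ATR WT. Of the gamma-like class, Gbp2 was highest with 17.7 CPM per kb in ATR mD/mD and 23.7 CPM per kb in ATR WT. The lowest members were Oas3 (0.306 and 0.257 CPM per kb) and Ifi44 (0.253 and 0.280 CPM per kb), which do not differ beyond their spread. Unscaled for length, Ifitm3 had 158.2, 131.6 and 167.3 CPM in ATR mD/mD and 186.0, 161.4 and 145.5 CPM in ATR WT (log2 fold change -0.11, SE 0.158). Ifi35 had 49.8, 40.0 and 49.2 CPM against 47.7, 42.5 and 36.3 CPM (0.13, SE 0.156), and Bst2, Ifitm1, Parp14 and Xaf1 had -0.26 (SE 0.269), -0.09 (SE 0.174), -0.05 (SE 0.138) and 0.04 (SE 0.227). Each of these genes overlapped between groups.

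**Figure D3:**
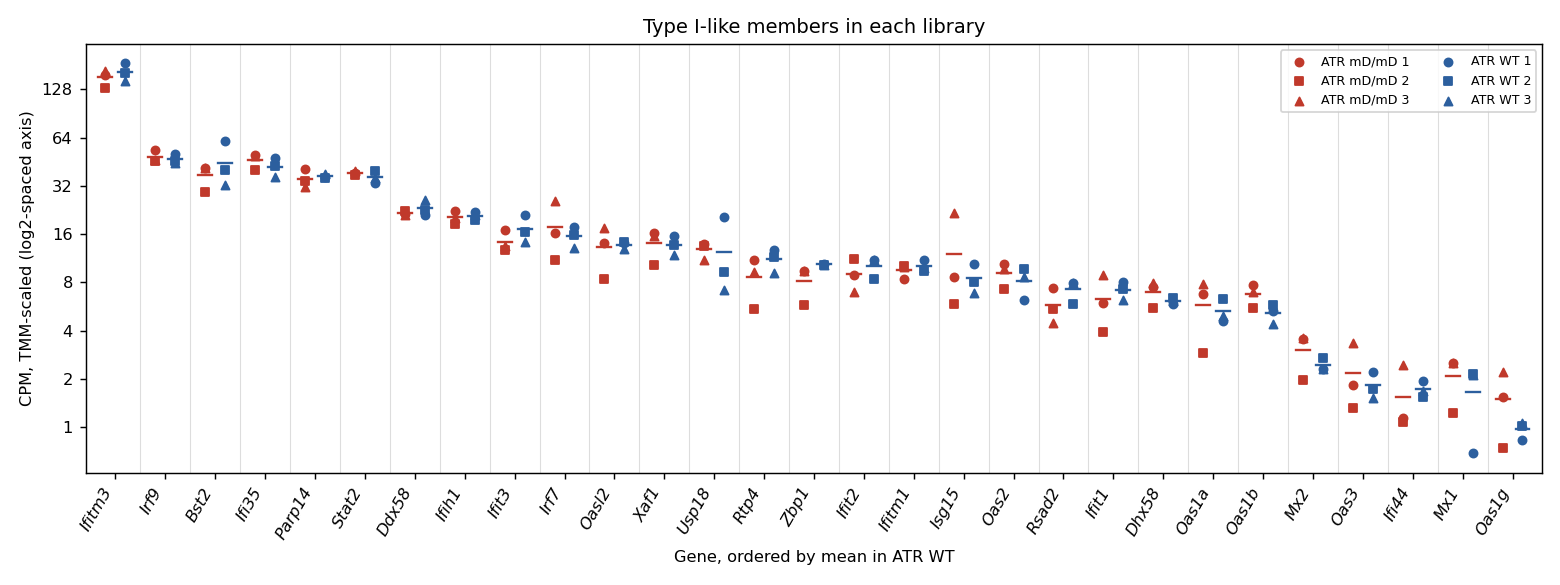
CPM of the 29 measured type I-like members in each library (log2-spaced y axis), genes ordered by their ATR WT mean; points are libraries and bars are group means, with ATR mD/mD left of ATR WT for each gene. ATR mD/mD 2 is the lowest library in 17 of the 29 genes and ATR mD/mD 3 the highest in 11, so the ATR mD/mD points straddle the ATR WT points.

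The 3 ATR mD/mD libraries differed among themselves in both classes. The mean level of the gamma-like members was 4.71, 4.09 and 4.30 log2 CPM in ATR mD/mD 1, 2 and 3, against 4.82, 4.70 and 4.88 log2 CPM in ATR WT 1, 2 and 3, so that ATR mD/mD 1 stood among the ATR WT libraries. The mean level of the type I-like members was 3.51, 3.06 and 3.61 log2 CPM in ATR mD/mD, against 3.46, 3.40 and 3.30 log2 CPM in ATR WT, and the ATR mD/mD libraries held both the lowest and the highest value. ATR mD/mD 2 was the lowest of the 6 libraries in 7 of 12 gamma-like and 17 of 29 type I-like members, against 15.1% of all genes. Without ATR mD/mD 1 the gamma-like median was -0.72, and without ATR mD/mD 2 it was -0.30. ATR mD/mD 1 was the only ATR mD/mD library with high Xist (18050 counts, against 40 and 23 in ATR mD/mD 2 and 3). In ATR WT, libraries 2 and 3 were high in Xist and ATR WT 1 was low (37 counts). Sex and other differences among the ATR mD/mD libraries cannot be told apart, and leaving out ATR mD/mD 1 made sex less balanced between groups.

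Hair level was set beside genotype next. Among the libraries with low hair levels, ATR mD/mD 1 and 2 were both below ATR WT 1 in 9 of 12 gamma-like and 13 of 29 type I-like members, against 37.4% of all genes. Among those with high hair levels, ATR mD/mD 3 was below both ATR WT 2 and ATR WT 3 in 11 of 12 gamma-like and 6 of 29 type I-like members, against 40.7% of all genes. Both held for 9 of 12 gamma-like members (all except Gbp2, Gbp7 and Gbp9) and for 3 of 29 type I-like members (Ifit3, Rsad2 and Zbp1), against 10.7% of all genes. The low set rests on 1 ATR WT library and the high set on 1 ATR mD/mD library. In the high set ATR mD/mD 3 had 23 Xist counts, against 23005 and 29207 counts in ATR WT 2 and 3. Sex and genotype therefore cannot be told apart in the high set. With the hair level as a covariate in the edgeR fit, the gamma-like median was -0.58 and the type I-like median -0.005. In that fit 7 gamma-like members were lower and 1, Gbp9, was higher at an unadjusted p under 0.05, against 2.49% and 1.60% of all genes. The lowest adjusted p of a member was 0.89. With the Y-linked level as the covariate, 2 gamma-like members reached that level in either direction (edgeR), and the median was -0.41. With 1 library left out, between 2 and 9 did, the 9 being in the fit without ATR mD/mD 1. The share over all genes was not counted for these other fits, so their counts cannot be read as a result about the members.

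**Figure D4:**
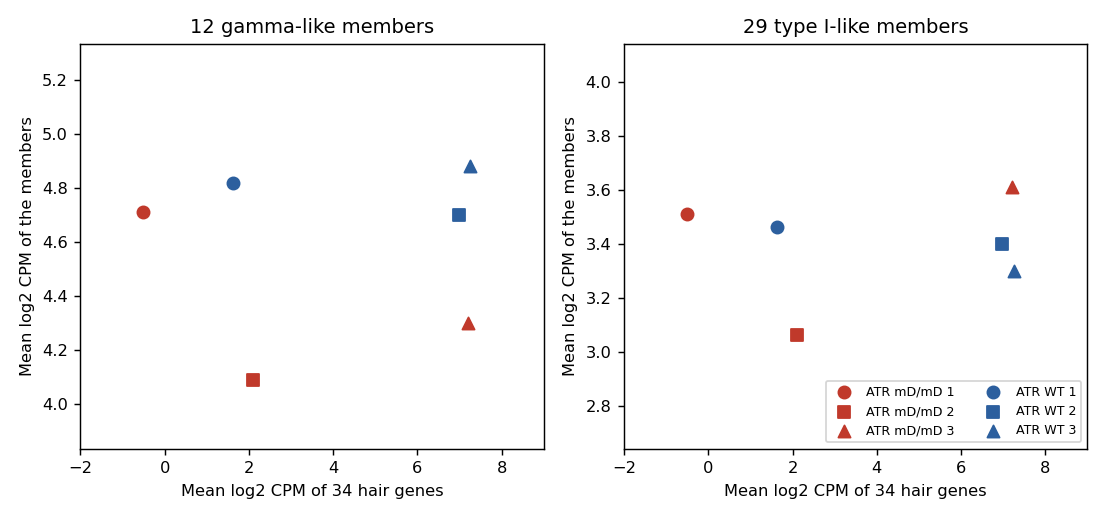
Mean log2 CPM of the 12 gamma-like members (left) and the 29 type I-like members (right) on the y axes, against the mean log2 CPM of 34 hair genes on the x axes; each point is a library. At high hair levels ATR mD/mD 3 lies at 4.30 for the gamma-like class, below ATR WT 2 and 3 at 4.70 and 4.88. For the type I-like class it lies at 3.61, above ATR WT 2 and 3 at 3.40 and 3.30. Sex and genotype cannot be told apart among these libraries.

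Other genes of the interferon pathway were followed on lists fixed with these results in view. None of the 21 interferon genes listed as ligands was analysed here. Of 16 receptor and signalling genes, 9 were below 0 and 0 were called (median -0.03). Of the receptor chains, Ifngr1 was at 0.15 (SE 0.162), Ifngr2 at -0.34 (SE 0.234), Ifnar1 at 0.08 (SE 0.159) and Ifnar2 at -0.12 (SE 0.125) on the log2 fold scale. Ifnlr1, the receptor chain for lambda interferons, had 0.24 (SE 0.172). Socs3, a feedback inhibitor of cytokine receptors that many signals besides interferon induce, had 37.0, 39.4 and 40.5 CPM in ATR mD/mD and 91.4, 69.5 and 53.6 CPM in ATR WT, with no overlap (-0.88, SE 0.201, adjusted p = 0.9999, edgeR).

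Of 25 nucleic acid sensors and adaptors, 8 were below 0 and 0 were called (median 0.04). Mb21d1 (cGAS), a DNA sensor, Traf3 and Ticam1, adaptors of sensor signalling, had 0.27 (SE 0.201), -0.19 (SE 0.148) and -0.17 (SE 0.131). Groups did not overlap in 1 of the 25 with ATR mD/mD lower (Ticam1) and in 1 with it higher (Mb21d1), against 2.58% and 2.26% of all genes. Of 64 other interferon-induced genes, 37 were below 0 and 0 were called (median -0.06). The groups did not overlap in 5 of the 64 with ATR mD/mD lower and in 4 of the 64 with ATR mD/mD higher, against 2.58% and 2.26% of all genes. The higher ones were Ifi202b (0.99, SE 0.415), Gbp10, Oas1c (0.41, SE 0.196) and Eif2ak2 (0.14, SE 0.125), and the lower ones were Cxcl9, Cxcl10, Tgtp1, Pml (-0.20, SE 0.123) and Lgals9 (-0.16, SE 0.106). All of these but Cxcl9, Cxcl10 and Tgtp1 were named after their values were seen. Cxcl9, a chemokine for T cells, had 8.09, 3.63 and 6.47 CPM in ATR mD/mD and 15.0, 13.7 and 13.4 CPM in ATR WT (-1.21, SE 0.305). Cxcl10, which binds the same receptor, had 4.60, 1.85 and 4.69 CPM against 9.24, 9.50 and 9.85 CPM (-1.36, SE 0.370). Tgtp1, an immunity-related GTPase with a near copy in Tgtp2, had 1.77, 0.838 and 1.55 CPM against 4.05, 2.46 and 2.89 CPM (-1.18, SE 0.374). In these 3 genes every ATR mD/mD library was below every ATR WT library, with adjusted p = 0.9999 for each (edgeR quasi-likelihood).

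Markers of cells that make or answer interferon also varied between libraries. In whole skin, fewer cells of a type and less RNA per cell cannot be told apart. The 13 measured T and NK cell markers had a summed level of 117.6, 86.23 and 59.80 CPM in ATR mD/mD, against 112.6, 84.52 and 81.09 CPM in ATR WT, and 6 of the 13 had a log2 fold change below 0. The 10 Langerhans and dendritic cell markers, which include MHC class II genes that interferon gamma also induces, had 3396, 1855 and 1802 CPM, against 3255, 2634 and 2547 CPM, and 9 of 10 were below 0. As with the gamma-like genes, ATR mD/mD 2 and 3 were the low libraries there and ATR mD/mD 1 was not. The 15 macrophage and monocyte markers had 1310, 828.5 and 1009 CPM, against 713, 1343 and 1412 CPM, with 6 below 0. Plasmacytoid dendritic cells make much type I interferon. Their 3 measured markers had 193.9, 180.8 and 154.8 CPM, against 201.6, 179.4 and 177.6 CPM, with 2 of 3 below 0. Irf8, 1 of the 3, had 32.7, 16.1 and 15.1 CPM, against 19.1, 23.2 and 24.5 CPM. Most of the summed level therefore came from the other markers, and whether it follows this cell type was not tested. The 4 neutrophil markers had 19.65, 14.14 and 21.58 CPM, against 11.22, 21.53 and 37.70 CPM, with 3 of 4 below 0. Of cells that answer interferon, the 8 fibroblast markers had 8693, 17390 and 17400 CPM, against 18850, 17240 and 14940 CPM, with 7 of 8 below 0. ATR mD/mD 1 was thus the low library in the fibroblast list and the highest of its group in the gamma-like class. The 7 endothelial markers had 336.7, 384 and 268.5 CPM, against 362.6, 281.1 and 272.3 CPM, with 1 of 7 below 0, and the 2 B cell markers had 5.919, 2.362 and 3.177 CPM, against 2.482, 4.83 and 5.015 CPM. None of these markers passed the test over all genes, and their part in the gamma-like values was not tested.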

How the data were processed

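RNA of 6 skin samples was sequenced after oligo dT selection with the TruSeq RNA v2 kit, which does not mark strand. Build mm10, TopHat2 2.0.12, FastQC and edgeR are named in the submitters' processing notes; the read counter, annotation and filter on low counts were not given in the sources used here. Per the file headers, the deposited table holds raw read counts of each gene in each library, beside the authors' own log2 fold change, mean log2 CPM, p-value and its adjusted value. The 2 rows naming no gene held 4.93% to 5.72% of counts and were left out. Counts of 14484 genes were scaled by TMM, and the quasi-likelihood test of edgeR 4.0.16 (R 4.3.3) compared ATR mD/mD with ATR WT, without covariate or filter, adjusted by Benjamini-Hochberg over all genes. The script was tested on simulated counts. A gene's SE is its absolute log2 fold change over the square root of the F statistic. No libraries of a group agreed within sampling noise (chi-square per degree of freedom at least 55.3).

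The members, classes, lists and tests were chosen with earlier results of these data known. All members were reported: in full the 5 with the smallest p and 3 with the highest CPM of each class and the factors Stat2, Irf1, Irf7 and Irf9, others by value or range. Of each pathway list the 3 genes with the smallest p and the interferon receptor chains were named, and 1 gene that this rule took is not reported here; Isg15, Usp18, further members given library by library and the non-members marked so in the text were picked after their values were seen. Exon lengths and overlaps come from GENCODE M21 and promoter windows from RefSeq (GRCm38.p6, the same build as mm10), in which 28 of 41 measured members matched by symbol. Alternatives were DESeq2 size factors, filters, DESeq2 1.42.0, edgeR's exact test, limma-voom 3.58.1, a replicate block, hair and Y-linked level covariates, and leaving out each library.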

Additional observations from a re-analysis of the deposited data

How the results depend on the processing

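All 12 gamma-like members kept their sign in each of the 15 alternatives, and 16 of the 29 type I-like members changed sign in at least 1. No member and no gene of the other interferon lists was called under any of them. The number of genes called over the whole table was 7, and it was 39 with DESeq2, 25 with edgeR's exact test, 4 with the Y-linked level as a covariate and between 4 and 10 with 1 library left out. With 1 library left out, the gamma-like median of -0.445 ran from -0.719 (without ATR mD/mD 1) to -0.303 (without ATR mD/mD 2), and the cause was not tested. Log2 fold changes with 1 library left out ran from -0.229 to 0.84 for Isg15, -0.54 to 0.0531 for Ifit1, -0.633 to 0.0599 for Ifi44, -0.102 to 0.0274 for Ifih1, -0.0236 to 0.602 for Mx1 and -0.134 to 0.462 for Oas1a. They ran from -0.203 to 0.514 for Oas3, -0.28 to 0.208 for Oasl2, -0.225 to 0.652 for Usp18, -0.193 to 0.436 for Irf7, -0.0185 to 0.125 for Irf9 and -0.457 to 0.0498 for Bst2. They ran from -0.0799 to 0.218 for Xaf1, -0.142 to 0.00101 for Ifitm1, -0.203 to 0.00197 for Ifitm3 and -0.157 to 0.0316 for Parp14. With the hair level as a covariate, Oasl2 was at 0.0215, Usp18 at -0.108 and Irf9 at -0.00497, and with the Y-linked level Usp18 was at -0.00673 and Parp14 at 0.00033. The main fit did not treat the shared replicate numbers as pairs. The correlations of deviations (0.633, -0.509 and 0.573) cannot decide whether they mark pairs, since the libraries also differed widely in hair level. With the replicate number as a block, 6 genes were called over the whole table and the gamma-like median was -0.481. Both filters left all 14484 genes. Members near 1 CPM, such as Oas1g, Mx1 and Ifi44, rest on few reads.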
